A study of Mus musculus with 16 samples.

Results

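The comparison described here is that of mouse embryonic fibroblasts treated with siRNAs against *Brca1* (siBrca1) with fibroblasts treated with a non-targeting siRNA (nt), both on day 6 of reprogramming towards pluripotency. It rests on 4 of the 16 RNA-seq libraries of the study, 2 for siBrca1 and 2 for nt, and on the 14028 of 18990 listed genes whose mean log2 CPM (log2 reads scaled to the library size) over all 16 libraries was at least 0. All groups were BL6 wild-type fibroblasts at passage 2 that carried 2 lentiviruses, a doxycycline-inducible cassette with *Oct4*, *Sox2*, *Klf4* and *Myc* (OSKM) and the rtTA activator, at a multiplicity of infection of 1. Cells of every group were transfected with 40 nM siRNA before induction and then received doxycycline (2 ug/mL), LIF, ascorbic acid (50 ug/mL), chiron (3 uM) and Alk5i (0.25 uM), the last a blocker of the TGF-beta type I receptor. The siBrca1 and nt groups of day 3, and the siWdr5 and siBard1 groups of day 6, were made in the same way and are used for reference, with 2 libraries each from independent experiments. The siRNAs against a gene were given as a pool, so that single siRNAs cannot be told apart, and the cells were transfected transiently.

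BRCA1 forms a ubiquitin ligase with BARD1, which marks histone H2A, and guides the repair of DNA breaks and of stalled replication forks by homologous recombination. Fibroblasts that are reprogrammed by OSKM first shut down their mesenchymal and contractile genes, then divide fast and take on epithelial features, and a small share later switches on the endogenous pluripotency network. Because RNA was taken from the whole dish, fewer cells of a type and less RNA per cell cannot be told apart.

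Sequences of 2 siRNAs against *Brca1* are shown because they tie the treatment to the measured transcript. Each guide strand is written 5′ to 3′, with its seed (bases 2 to 8) in capitals.
siBrca1 guide 1: aAGGACAUugugaaggccctt
siBrca1 guide 2: aCUAAACCuugugcuuccctg
*Brca1* lies on chromosome 11 (mm10, GENCODE vM21, bases 101488764 to 101551955, minus strand). The site of guide 1 is chr11:101535553-101535571, in coding sequence of exon 4 of transcript ENSMUST00000017290.10, and occurs in 3 of the 7 annotated *Brca1* transcripts. The site of guide 2 is chr11:101534000-101534018, in coding sequence of exon 5 of the same transcript, and occurs in 2 of the 7.

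The 4 libraries held between 11169738 and 13316123 reads, against up to 26832534 in the series, so that 3 reads, the limit taken for detection, correspond to 0.202 to 0.260 CPM. The siBrca1 replicates differed more from each other than did the nt replicates, with an SD over genes of the difference between replicates of 0.44 against 0.33 on the log2 scale. The second principal component of the 8 day 6 libraries (15.0% of the variance) placed siBrca1 replicate 1 at -20.7 and replicate 2 at 26.5, the lowest and the highest score of the 8. Ribosomal RNA annotated as *CT010467.1*, chosen after its values were seen, stood at 1013 and 1638 CPM in nt but at 5.64 CPM in siBrca1 replicate 1 and 725 CPM in replicate 2. Mitochondrial rRNA *mt-Rnr2*, likewise chosen afterwards, was at 143 and 312 CPM in nt and at 30.1 and 366 CPM in siBrca1. The part of these differences between libraries in the results was not tested.

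*Brca1* mRNA did not differ detectably between siBrca1 and nt at day 6. Its level was 33.0 and 42.4 CPM in the nt replicates and 35.7 and 39.9 CPM in the siBrca1 replicates, so that both siBrca1 values lay between the nt values. The change was 0.01 on the log2 scale, with a 95% interval of -0.31 to 0.33 (limma, adjusted p = 0.988). At day 3 the level had been 82.3 and 77.8 CPM in nt and 37.3 and 19.3 CPM in siBrca1, a change of -1.57 (adjusted p = 7.9e-05, two-sided as all tests here). The change at day 6 exceeded that at day 3 by 1.58 (interval 0.94 to 2.23, adjusted p = 0.0039 in the fit of all 16 libraries). The level of *Brca1* in nt was itself lower at day 6 than at day 3.

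*Bard1*, which encodes the partner of BRCA1 in the ligase, followed the same course. It stood at 11.1 and 13.9 CPM in nt and at 10.8 and 15.0 CPM in siBrca1 at day 6, a change of 0.03 (interval -0.41 to 0.47), after a fall of 1.38 on the log2 scale at day 3. *Wdr5*, a subunit of the complexes that methylate histone H3 at lysine 4, was at 91.7 and 98.0 CPM in nt and at 92.6 and 83.4 CPM in siBrca1, a change of -0.11 (interval -0.42 to 0.21).

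The 4 reprogramming factors were lower in both siBrca1 replicates than in both nt replicates, as were 15% of all genes tested. None of the 4 passed the test. Reads of the introduced cassette and of the endogenous genes were counted together. Because the same cassette carries all 4, their changes need not be separate observations. *Klf4* was at 393 and 494 CPM in nt and at 325 and 258 CPM in siBrca1, a change of -0.61 (interval -1.16 to -0.05, adjusted p = 0.589). *Pou5f1*, the gene of OCT4, was at 205 and 241 CPM in nt and at 158 and 130 CPM in siBrca1, a change of -0.64 (interval -1.22 to -0.05, adjusted p = 0.589). The corresponding changes were -0.47 for *Sox2* and -0.37 for *Myc*, whose intervals included 0. That of *Sox2* was -0.28 without nt replicate 2 and -0.66 without nt replicate 1. The median change of the 4 factors was -0.54, and -0.36 and -0.70 in these 2 cases. At day 3 all 4 had fallen, by 0.97 to 1.17 on the log2 scale, and the difference between the days was not significant for any of them (adjusted p = 0.102 to 0.481).

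**Figure D1:**
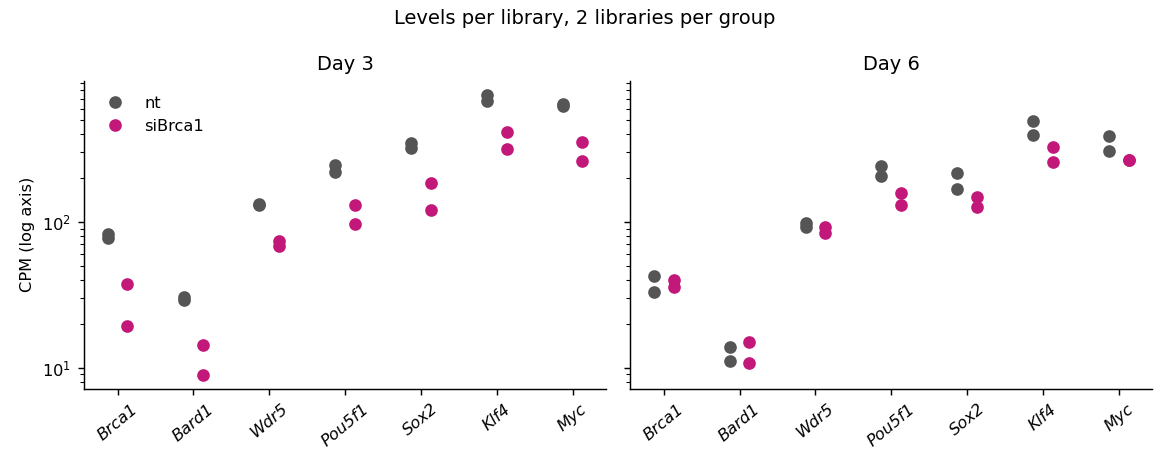
Levels of *Brca1*, *Bard1*, *Wdr5* and the 4 reprogramming factors in each nt and siBrca1 library at day 3 and day 6, in CPM on a log axis, with 1 point for each library. The siBrca1 points of *Brca1*, *Bard1* and *Wdr5* lie below the nt points at day 3 and at a similar height at day 6, whereas those of the factors lie below nt on both days.

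Across all genes, no gene passed the threshold of the study, an adjusted p under 0.05 with a change above 1 on the log2 scale. The count was 0 of 14028 genes (0%) with limma, and 0 also by adjusted p alone, the smallest adjusted p being 0.0982. At an unadjusted p under 0.05 stood 1123 genes (8.01%), of which 720 (5.13% of the genes tested) were higher and 403 (2.87%) were lower in siBrca1. The count at an unadjusted p under 0.05 was 516 without nt replicate 2 and 2452 without siBrca1 replicate 1. With limma-voom on the recovered reads the counts were 0 called and 1042 at an unadjusted p under 0.05. For 11618 genes (82.8%) the 95% interval of the change lay wholly within 1 either way, so that a larger change was outside the interval for most genes. A change above 1 was measured for 183 genes, 109 of them higher, and 153 of the 183 had an unadjusted p under 0.05. Both siBrca1 libraries were above both nt libraries for 3071 genes (21.9%) and below both for 2109 (15%).

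The same contrast depended on which libraries lent their spread to the test. In a fit of all 16 libraries, 16 genes were called, 15 higher and 1 lower. The genes higher in that fit included *Myh11*, *Cnn1* and *Actg2* of the contractile apparatus, *Tgfb3*, *Timp3*, *Serpina3n*, *Mn1*, *Nmnat2*, *Mgam*, *Selp*, *Tnfrsf11b* and *Clstn2*, and also *Adra1b*, *Mrvi1* and *Sorbs2*, which are outside the rule for named genes and were picked after their values were seen. The lower gene was *Slco4a1*, which encodes an organic anion transporter. With only the 4 libraries of the 2 groups, *Myh11* alone was called (adjusted p = 0.0115).

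The changes of siBrca1 at day 3 were larger, with an SD over genes of 0.69 on the log2 scale against 0.31 at day 6. Of the genes tested, 3559 (25.4%) were higher and 3061 (21.8%) lower in siBrca1 at day 3 at an adjusted p under 0.05. At day 6 the median change was 0.14 for the former group and -0.03 for the latter, against medians of 0.74 and -0.71 at day 3. Among the genes higher at day 3, 2608 (73.3%) had a change above 0 at day 6, and among those lower at day 3, 1785 (58.3%) had a change below 0. The libraries of the 2 days are separate, so no library enters both changes. A change that was not equal on day 6 and day 3 passed the full threshold for 1206 genes (8.6%), 555 of them with the higher value at day 6 and 651 with the lower. Leaving out 1 library moved the count to between 437 (without siBrca1 day 3 replicate 2) and 1956 (without siBrca1 day 3 replicate 1), with 774 without nt day 3 replicate 1. By adjusted p alone the genes were 1438 (10.3%) and 1440 (10.3%).

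**Figure D2:**
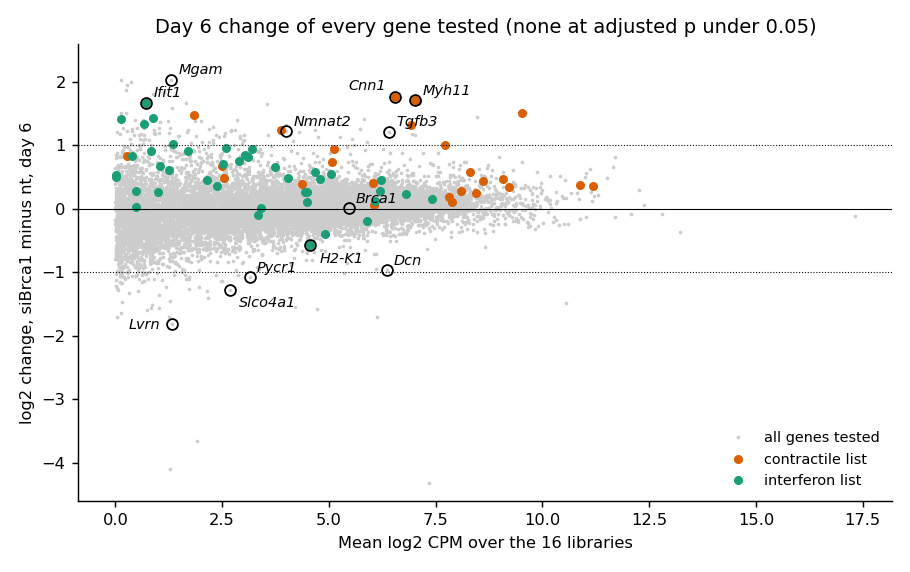
Change of each gene tested between siBrca1 and nt at day 6 (log2, vertical) against its mean log2 CPM over the 16 libraries (horizontal), with contractile genes in orange, interferon genes in green and named genes circled. *Myh11* and *Cnn1* stand above the other genes of similar level, *Brca1* lies at 0, and no gene reached an adjusted p under 0.05.

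Contractile genes were higher in siBrca1 than in nt at day 6 in most of the list, although no single member passed the adjusted test. Fibroblasts in culture build stress fibres from smooth muscle actin and myosin, and the genes of this apparatus are driven by serum response factor (SRF) with its partners MRTF and myocardin. Of the 26 contractile genes tested, 24 were higher in both siBrca1 libraries than in both nt libraries and 0 were lower in both. Over all genes tested these shares were 21.9% and 15%. At an unadjusted p under 0.05 were 15 higher and 0 lower, where 5.13% and 2.87% of all genes tested were. The median change was 0.53, against 0.03 over all genes tested. Because the siBrca1 replicates stood apart, the list was also examined without each of them: the median was 0.60 without replicate 1 and 0.46 without replicate 2. Without nt replicate 2 it was 0.45. In each of these cases fewer members were higher at an unadjusted p under 0.05.

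*Myh11* (chromosome 16, bases 14194535 to 14291372, minus strand), the smooth muscle myosin heavy chain, was at 23.8 and 24.8 CPM in nt and at 80.0 and 80.2 CPM in siBrca1. This was a change of 1.71 (interval 1.22 to 2.21), or 3.28-fold, with the smallest adjusted p of the comparison (0.0982). A wide gap beside close replicates follows from that rank among 14028 genes. *Cnn1*, which encodes the actin-binding calponin, was at 16.8 and 10.8 CPM in nt and at 41.6 and 50.9 CPM in siBrca1, a change of 1.76 (interval 1.00 to 2.53, adjusted p = 0.33). *Actg2*, the enteric smooth muscle actin, was at 20.9 and 13.8 CPM in nt and at 48.2 and 63.5 CPM in siBrca1, a change of 1.70 (interval 0.93 to 2.46). *Acta2*, the smooth muscle actin of myofibroblasts, was at 131 and 103 CPM in nt and at 306 and 356 CPM in siBrca1, a change of 1.51 (interval 0.74 to 2.27). In each of these genes the lower siBrca1 value was above the higher nt value, as for 21.9% of all genes tested. Members of the list were named as core members or for a small p here, so this can follow from the choice.

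Other members had both siBrca1 values above nt as well. *Myl9*, a regulatory myosin light chain, was at 26.5 and 20.8 CPM in nt and at 59.4 and 57.9 CPM in siBrca1, a change of 1.32. *Tpm2*, which encodes tropomyosin beta, was at 65.8 and 52.6 CPM in nt and at 120 and 116 CPM in siBrca1, a change of 1.00. *Tagln*, the gene of transgelin, was covered by few reads, with 0.560 and 0.718 CPM in nt and 1.47 and 2.76 CPM in siBrca1. *Acta1*, the skeletal muscle actin, was at 2.56 and 3.11 CPM in nt and at 6.85 and 6.95 CPM in siBrca1. The actin genes have closely similar coding sequences, and how reads shared between them were counted is not given in the sources used here.

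The levels of *Acta2* and *Myh11* were lower at day 6 than at day 3 in both groups. *Acta2* stood at 671 and 832 CPM in nt at day 3 and at 3503 and 4689 CPM in siBrca1, so that the siBrca1 level at day 6 was below the nt level at day 3. *Myh11* was at 96.2 and 113 CPM in nt and at 551 and 732 CPM in siBrca1 at day 3, a change of 2.61 (adjusted p = 2.23e-07). Its change at day 6 was smaller by 0.89 (interval of the difference -1.51 to -0.28, adjusted p = 0.0402). All 26 contractile genes were higher in siBrca1 at day 3 at an adjusted p under 0.05, as were 25.4% of all genes tested. The list had a median change of 1.62 at day 3. By the test of the difference, 14 of the 26 had a smaller change at day 6. Of all genes tested, 10.3% had the lower value at day 6 by that test.

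**Figure D3:**
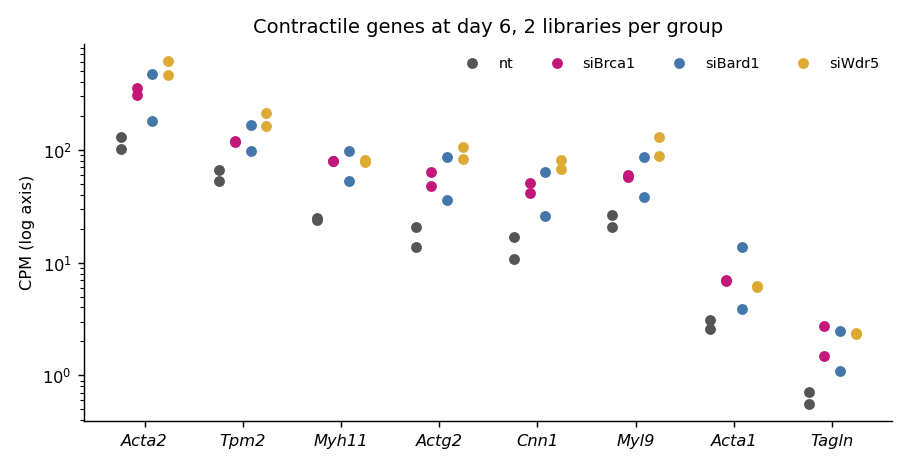
Levels of 8 contractile genes in each nt, siBrca1, siBard1 and siWdr5 library at day 6, in CPM on a log axis, with 1 point for each library. Both siBrca1 points lie above both nt points for every gene shown, and the siBard1 points are spread more widely than those of siBrca1 for most of them.

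Promoters were searched for the CArG box, the sequence that SRF binds (CC, then 6 bases that are each A or T, then GG), which reads the same on both strands. It was looked for in RefSeq promoters (GRCm38.p6) from 250 bases before to 50 bases after the start of each gene. The box occurred in 6 of the 21 contractile genes with a promoter in the table (28.6%) and in 163 of all 10195 genes tested with one (1.6%). Allowing 1 base off within the middle 6, the counts were 7 of 21 (33.3%) and 1076 of 10195 (10.6%). The promoters of *Acta2* and *Myl9* are shown because both genes had siBrca1 values above those of nt, though not past the test, and both hold such boxes, which are in capitals. They lie at chr19:34255324-34255623 on the minus strand and at chr2:156775214-156775513 on the plus strand.
Acta2 promoter: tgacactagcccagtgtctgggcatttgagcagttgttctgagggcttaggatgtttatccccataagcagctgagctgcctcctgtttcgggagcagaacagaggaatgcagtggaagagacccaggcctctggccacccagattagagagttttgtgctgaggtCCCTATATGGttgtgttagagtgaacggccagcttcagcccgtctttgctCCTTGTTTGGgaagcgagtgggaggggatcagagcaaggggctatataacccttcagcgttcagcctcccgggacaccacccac
Myl9 promoter: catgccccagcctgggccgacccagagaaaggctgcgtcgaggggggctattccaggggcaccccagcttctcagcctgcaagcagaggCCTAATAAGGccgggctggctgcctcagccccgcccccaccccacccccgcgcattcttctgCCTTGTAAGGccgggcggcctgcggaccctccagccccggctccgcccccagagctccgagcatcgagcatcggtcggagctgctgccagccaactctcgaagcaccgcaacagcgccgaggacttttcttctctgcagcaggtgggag
The boxes of *Acta2* begin at -84 and -34 relative to the start site and both are 1 base off. Those of *Myl9* begin at -161, an exact match, and at -99, 1 base off. The promoters of *Cnn1* and *Tpm2*, which were also higher in siBrca1, held no box, exact or 1 base off. *Srf* held exact boxes at -82 and -62 and was at 46.95 and 43.6 CPM in nt and 48.4 and 45.65 CPM in siBrca1. No promoter was available for *Myh11*, *Actg2* or *Tagln*. A match describes the letters of the promoter and does not show binding, and a link between boxes and changes was not tested.

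Levels of markers for other cell types were compared beside this result. The summed level of 12 fibroblast markers was 5396 and 5160 CPM in nt and 6320 and 6688 CPM in siBrca1. The difference lay mainly in *Col1a1* and *Vim*, while the list had a median change of 0.09 with 7 of 12 above 0, and of -0.06 without siBrca1 replicate 2. Of 14 skeletal muscle markers, 8 were listed, and their sum was 136 and 116 CPM in nt but 375 and 124 CPM in siBrca1. The high value of replicate 1 came largely from *Mylpf*, a fast skeletal muscle myosin light chain, at 107 and 91.5 CPM in nt and at 328 and 83.4 CPM in siBrca1. *Des*, the intermediate filament of all muscle types and the marker shared with smooth muscle, was at 16.5 and 13.6 CPM in nt and at 37.5 and 34.6 CPM in siBrca1. The skeletal muscle markers *Chrna1*, *Myh3* and *Tnni1* went the other way, with both siBrca1 values below both nt values. Only 4 of the muscle markers were tested. At an unadjusted p under 0.05 (limma), 1 was higher and 2 were lower, with a median change of 0.007. Of 15 macrophage markers, 9 were listed, with a sum of 27.7 and 22.7 CPM in nt and 38.9 and 29.5 CPM in siBrca1. The sum of 10 listed endothelial markers was 26.2 and 26.6 CPM in nt and 30.4 and 34.6 CPM in siBrca1. Summed levels of neural markers were 211 and 216 CPM in nt and 200.0 and 188 CPM in siBrca1, those of keratinocyte markers 68.8 and 56.5 CPM against 63.1 and 52.8 CPM, and those of trophoblast markers 64.9 and 88.9 CPM against 71.3 and 78.0 CPM. Primitive endoderm markers summed to 539 and 515 CPM in nt and 626 and 538 CPM in siBrca1, and erythroid markers to at most 6.42 CPM in any of the 4 libraries. Of the listed markers of all these types, 1 endothelial marker was at 0 in all 4 libraries. The part of such cells in the results was not tested.

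Genes of TGF-beta signalling and of the extracellular matrix were also mostly higher in siBrca1. TGF-beta is secreted in a latent form that is held in the matrix, and its signal sustains collagen production and the mesenchymal state. Over all genes tested, 5.13% were higher and 2.87% lower at an unadjusted p under 0.05. Of 36 TGF-beta and BMP genes, 10 were higher and 0 lower at that level, with a median change of 0.28. Of 54 collagen and matrix genes, 14 were higher and 0 lower, with a median of 0.27. Of 38 mesenchymal genes, 12 were higher and 3 lower, with a median of 0.20. None of these genes had an adjusted p under 0.05 with limma. The medians of the 3 lists were 0.39, 0.27 and 0.32 without siBrca1 replicate 1 and 0.30, 0.24 and 0.12 without replicate 2. Without nt replicate 2 they were 0.16, 0.31 and 0.15. The counts of higher genes rose in all 3 lists without siBrca1 replicate 1 and fell without siBrca1 replicate 2 or nt replicate 2. The count at an unadjusted p under 0.05 over all genes tested moved the same way.

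Among the ligands, *Tgfb3* (chromosome 12, bases 86056745 to 86079041, minus strand) was at 22.2 and 18.7 CPM in nt and at 44.4 and 51.0 CPM in siBrca1, a change of 1.22 (interval 0.80 to 1.64, adjusted p = 0.238). *Tgfb2* was at 43.7 and 46.0 CPM in nt and at 59.7 and 91.8 CPM in siBrca1, a change of 0.72 (interval 0.25 to 1.19). *Inhba*, the activin A subunit, was at 43.2 and 37.4 CPM in nt and at 53.4 and 68.9 CPM in siBrca1, a change of 0.59. In all 3 both siBrca1 values were above both nt values, as for 21.9% of all genes tested. The changes of *Tgfb3* and *Inhba* at day 6 were smaller than at day 3, by 1.02 (adjusted p = 0.0121) and 1.43 (adjusted p = 0.00315). *Ltbp2*, a relative of the proteins that tether latent TGF-beta, was at 135 and 129 CPM in nt and at 218 and 222 CPM in siBrca1, a change of 0.74.

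Values of 2 further genes follow, while signalling itself was not measured. *Timp3*, an inhibitor of metalloproteinases, was at 38.5 and 27.1 CPM in nt and at 63.7 and 84.9 CPM in siBrca1, a change of 1.18 (interval 0.60 to 1.77). *Ankrd1*, a target of YAP, was at 7.998 and 6.06 CPM in nt and at 13.3 and 18.1 CPM in siBrca1, a change of 1.14. These genes respond in fibroblasts to TGF-beta or to stiffness and are low in pluripotent cells. Of the 30 genes of the YAP and AP-1 list, 7 were higher and 0 lower at an unadjusted p under 0.05. Over all genes tested these shares were 5.13% and 2.87%. The count of higher genes fell without siBrca1 replicate 2 and without either nt replicate, as did the count over all genes tested. The list median was 0.27 without siBrca1 replicate 2, and 0.27 and 0.20 without nt replicates 1 and 2. Of 26 protease genes 7 were higher and 2 lower, and of 28 inflammation genes 6 were higher and 1 lower, with medians of 0.16 each. Without nt replicate 2 fewer genes of either list were higher, and the inflammation median was -0.01, against 0.39 without nt replicate 1. The inflammation list also had fewer higher genes without siBrca1 replicate 2. Of 35 FGF and WNT genes 6 were higher and 1 lower, with a median of 0.04, and fewer were higher without siBrca1 replicate 2.

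Of the collagen and matrix genes, 43 of 54 had a change above 0, as did 7700 of all 14028 genes tested. *Dcn*, given below, is not among these 54, whose lowest change was -0.68. *Col1a1*, the main chain of type I collagen, was at 1048 and 1016 CPM in nt and at 1445 and 1833 CPM in siBrca1, a change of 0.66 (interval 0.12 to 1.20). *Fbln2*, which encodes the matrix glycoprotein fibulin 2, was at 169 and 163 CPM in nt and at 290.1 and 296.7 CPM in siBrca1, a change of 0.82. *Fn1*, the gene of fibronectin, was at 972 and 950.2 CPM in nt and at 1617 and 1368 CPM in siBrca1, a change of 0.63. *Lox*, which crosslinks collagen, was at 45.0 and 43.1 CPM in nt and at 63.4 and 91.1 CPM in siBrca1, a change of 0.79. *Vim*, the intermediate filament of mesenchymal cells, was at 1372 and 1175 CPM in nt and at 2004 and 1773 CPM in siBrca1. *Dcn* went the other way, with 301 and 291 CPM in nt and 143 and 161 CPM in siBrca1, a change of -0.96 (interval -1.38 to -0.55, adjusted p = 0.33). Decorin, its product, binds collagen and TGF-beta. The difference between the days was not significant for *Col1a1*, *Fbln2*, *Lox* or *Dcn*, whereas *Itga5*, the fibronectin receptor subunit, changed by 0.52 at day 6 after a rise of 2.09 at day 3 (adjusted p of the difference = 0.00207).

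Interferon-stimulated genes were also higher in siBrca1, again with no gene past the adjusted test. These genes encode sensors of foreign nucleic acid and antiviral effectors and are switched on together by interferon. Of 41 tested, 18 were higher and 1 lower at an unadjusted p under 0.05, where 5.13% and 2.87% of all genes tested were. In both siBrca1 libraries 26 were higher than in both nt libraries, as were 21.9% of all genes. The median change was 0.51. Without siBrca1 replicate 1 the median was 0.36, and without replicate 2 it was 0.62. Without nt replicate 2 it was 0.54, while fewer members, and fewer of all genes tested, stood at an unadjusted p under 0.05. *Ddx58*, the gene of the RNA sensor RIG-I, was at 26.6 and 28.3 CPM in nt and at 42.7 and 38.2 CPM in siBrca1, a change of 0.56 (interval 0.27 to 0.84, adjusted p = 0.33). *Irgm1*, an interferon-induced GTPase, was at 6.64 and 6.62 CPM in nt and at 14.7 and 11.3 CPM in siBrca1, a change of 0.94 (interval 0.49 to 1.40). *Ifit1*, which binds foreign RNA, was at 1.12 and 1.59 CPM in nt and at 6.85 and 3.03 CPM in siBrca1, so that the siBrca1 replicates differed from each other more than 2-fold.

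Values of 2 regulators of the response follow. *Parp9* was at 6.72 and 7.42 CPM in nt and at 12.2 and 12.9 CPM in siBrca1, a change of 0.82. *Irf7*, the amplifier of the interferon response, was at 2.40 and 2.15 CPM in nt and at 6.33 and 3.57 CPM in siBrca1, a change of 1.02. *H2-K1*, a class I antigen-presenting molecule whose reads may be shared with near-identical class I genes, was lower, with 50.1 and 48.1 CPM in nt and 34.0 and 32.0 CPM in siBrca1, a change of -0.57 (interval -0.86 to -0.29) after a rise of 1.22 at day 3 (adjusted p of the difference = 0.00191). Of the 41 interferon genes, 0 had a higher and 5 a lower change at day 6 than at day 3 at an adjusted p under 0.05, where 10.3% of all genes tested had a lower one, and the median difference between the days was 0.14.

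Genes of cell division had median changes close to 0 at day 6. In siBrca1 at day 3, 38 of 39 mitosis and 35 of 36 replication genes had been lower at an adjusted p under 0.05. Their median changes were -1.31 and -1.204, and 21.8% of all genes tested had been lower. At day 6 the medians were 0.06 and -0.02. At an unadjusted p under 0.05 were 0 of the mitosis genes, 3 of the replication genes and 8.01% of all genes tested. Without siBrca1 replicate 1 the mitosis median was 0.18, and more members of both lists, and more of all genes tested, stood at that level. The test of the difference between the days was passed by 37 mitosis and 31 replication genes, all with the higher value at day 6. Of all genes tested, 10.3% passed it with the higher value at day 6. *Ccna2*, the S and G2 phase cyclin, was at 78.5 and 78.1 CPM in nt and at 86.2 and 94.6 CPM in siBrca1 (interval of the change -0.07 to 0.48). *Pcna*, the sliding clamp of DNA polymerase, was at 186 and 158 CPM in nt and at 169 and 169.7 CPM in siBrca1 (interval -0.30 to 0.27). *Mki67*, the proliferation marker Ki-67, was at 131 and 152 CPM in nt and at 126 and 193 CPM in siBrca1.

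Repair genes likewise had medians close to 0. Of 47 genes of homologous recombination and the Fanconi pathway, 36 had been lower at day 3, as had 21.8% of all genes tested. At day 6, 0 were higher and 2 lower at an unadjusted p under 0.05, with a median of -0.02. Of all genes tested, 5.13% were higher and 2.87% lower at that level. Of 15 subunits of BRCA1 complexes, 10 had been lower at day 3 and 0 stood at an unadjusted p under 0.05 at day 6, with changes between -0.22 and 0.26. *Chek1*, the checkpoint kinase of replication stress, was at 45.2 and 44.1 CPM in nt and at 52.9 and 46.5 CPM in siBrca1 (interval of the change -0.19 to 0.49). *Cdkn1a*, the p53 target that encodes the cell cycle inhibitor p21, was at 484 and 432 CPM in nt and at 557 and 492 CPM in siBrca1 (interval -0.15 to 0.54). Of 32 p53 targets and inhibitors of the cell cycle, 4 were higher, where 5.13% of all genes tested were, and 0 lower at an unadjusted p under 0.05. These were 1 and 0 with only the libraries of both groups, and the counts also moved when 1 library was left out. Of 24 genes of H3K4 methylation and Polycomb complexes 1 was higher and 1 lower, and of 34 imprinted genes 0 stood at that level in either direction.

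**Figure D4:**
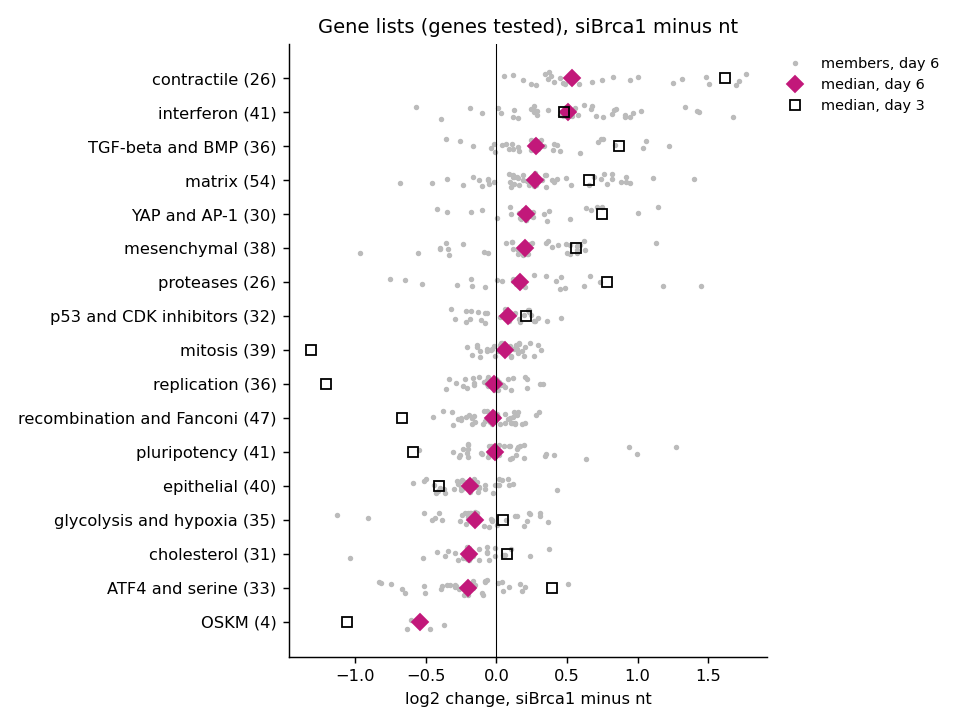
Change between siBrca1 and nt on the log2 scale for 17 gene lists, with the number of genes tested in brackets, grey points for the members at day 6, filled diamonds for their median and open squares for the median at day 3. The mitosis and replication medians lie below -1 at day 3 and near 0 at day 6, and the contractile median is 0.53 at day 6 and 1.62 at day 3.

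Histone genes had a median change of -0.28 over 48 genes at day 6, with 0 at an unadjusted p under 0.05, but the sign turned on single libraries. The median was -0.90 without siBrca1 replicate 1 and 0.30 with 45 of 48 above 0 without replicate 2. It was -0.01 without nt replicate 1 and -0.57 without nt replicate 2. With the replicate number as a block, 13 were lower. Their replicates differed strongly, the siBrca1 replicates by a median of 1.24 (38 of 48 genes by more than 1) and the nt replicates by 0.57, in each case with replicate 1 higher. Replicate 1 was the higher one in 46 to 48 of the 48 genes in all 4 groups of day 6. At day 3, 46 of the 48 had been lower in siBrca1, with a median of -1.61.

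Epithelial genes were slightly lower in siBrca1. The gain of epithelial junctions and keratins is an early step of reprogramming. Of 40 epithelial genes, 13 were below nt in both siBrca1 libraries and 1 above, against 15% and 21.9% of all genes tested. At an unadjusted p under 0.05 were 3 lower and 1 higher, against 2.87% and 5.13%, and the median was -0.19. It was -0.08 without siBrca1 replicate 1, -0.29 without replicate 2, and -0.35 and -0.02 without nt replicates 1 and 2. *Spint2*, an inhibitor of membrane serine proteases, was at 36.1 and 37.4 CPM in nt and at 28.0 and 24.0 CPM in siBrca1, a change of -0.50 (interval -0.87 to -0.13). *F11r*, a tight junction molecule, was at 26.4 and 25.5 CPM in nt and at 19.4 and 19.8 CPM in siBrca1, a change of -0.40 (interval -0.70 to -0.11). *Cdh1*, the gene of E-cadherin, was at 117 and 159 CPM in nt and at 111 and 141 CPM in siBrca1, with overlapping groups (interval -0.55 to 0.29), after a fall of 1.46 on the log2 scale at day 3.

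Several pluripotency genes differed widely between the 2 siBrca1 replicates, and none passed the test between the groups. Of 41 such genes, 0 stood at an unadjusted p under 0.05, and the median change was -0.01. Without siBrca1 replicate 2 the median was 0.12 and the count rose, and without replicate 1 the median was -0.13. *Nanog*, a core factor of the pluripotent state, was at 55.3 and 49.2 CPM in nt, at 126 CPM in siBrca1 replicate 1 and at 38.1 CPM in replicate 2. *Dppa5a*, an RNA-binding protein of pluripotent cells, was at 30.8 and 41.7 CPM in nt and at 218 and 34.3 CPM in siBrca1. *Tdgf1*, the NODAL co-receptor, was at 29.0 and 28.6 CPM in nt and at 94.4 and 32.3 CPM in siBrca1. In these genes replicate 1 was the highest of the 4 libraries, while replicate 2 was near the nt values or below them.

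The same direction was seen over the list. Replicate 1 of siBrca1 exceeded replicate 2 in 31 of the 41 genes, by more than 1 on the log2 scale in 7, with a median difference of 0.33. In nt replicate 1 was higher in 15 of 41 and by more than 1 in 0, with a median of -0.16. The siWdr5 replicates were split as those of siBrca1 were, with replicate 1 higher in 32 of 41 and by more than 1 in 7, and a median of 0.41. *Sall4*, a zinc finger factor of pluripotent cells, did not differ between replicates in this way, with 28.5 and 35.0 CPM in nt and 27.7 and 31.2 CPM in siBrca1. *Fbxo15*, an early pluripotency marker, was at 7.76 and 6.54 CPM in nt and at 23.8 and 8.56 CPM in siBrca1, and its change differed between day 6 and day 3 by 3.16 (interval 1.40 to 4.91, adjusted p = 0.0154). The intervals of the day 6 changes are accordingly wide, -0.65 to 1.47 for *Nanog* and -0.67 to 3.21 for *Dppa5a*.

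**Figure D5:**
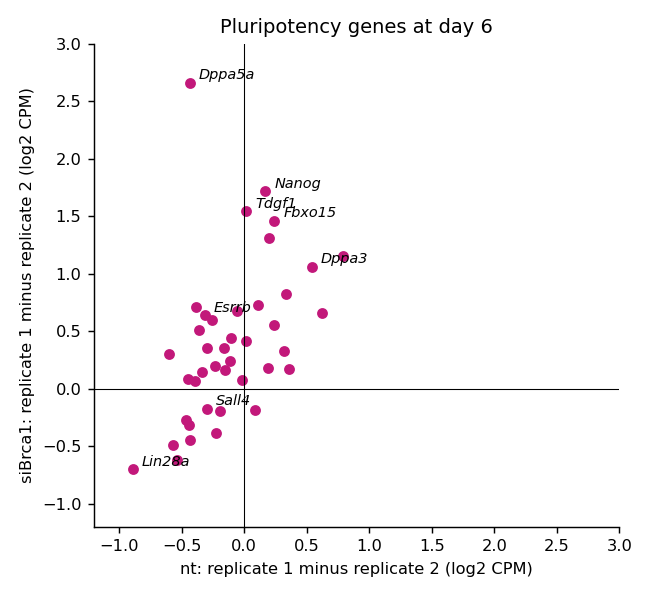
Difference between replicate 1 and replicate 2 of each pluripotency gene at day 6 (log2), siBrca1 on the vertical axis and nt on the horizontal axis, with 1 point for each of the 41 genes. *Dppa5a*, *Nanog*, *Tdgf1* and *Fbxo15* lie above 1 for siBrca1 and within 0.44 of 0 for nt.

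Genes of 3 metabolic lists had median changes below 0 in siBrca1, and none of their members passed the adjusted test with limma. Over all genes tested, 2.87% were lower and 5.13% higher at an unadjusted p under 0.05. Of 33 ATF4 targets, which serve amino acid synthesis and the stress response, 8 were lower and 1 higher at that level, with a median change of -0.20. Of 31 cholesterol synthesis genes, 5 were lower and 0 higher, with a median of -0.19. Of 35 glycolysis and hypoxia genes, 4 were lower and 0 higher, with a median of -0.15. Of 38 nuclear genes of oxidative phosphorylation, 0 stood at an unadjusted p under 0.05 in either direction. The counts of lower genes in the first 3 lists moved when 1 library was left out, as did the count over all genes tested. The medians of these 3 lists stayed below 0 in each case, although that of glycolysis and hypoxia was only -0.03 without siBrca1 replicate 2.

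*Pycr1* (chromosome 11, bases 120635712 to 120643769, minus strand), the last enzyme of proline synthesis, was at 16.1 and 17.4 CPM in nt and at 7.98 and 7.75 CPM in siBrca1. The change was -1.07 (interval -1.45 to -0.70, adjusted p = 0.238), against a rise of 0.63 at day 3, and the difference between the days was -1.70 (adjusted p = 0.00311). *Phgdh*, the first enzyme of serine synthesis, was at 108 and 109 CPM in nt and at 88.2 and 65.5 CPM in siBrca1, a change of -0.51 (interval -0.88 to -0.14). *Psph*, the last enzyme of that route, was at 34.0 and 29.3 CPM in nt and at 23.8 and 16.5 CPM in siBrca1, a change of -0.67. *Aldh1l2* and *Trib3*, a mitochondrial folate enzyme and a pseudokinase induced by ATF4, changed by -0.83 and -0.75. Both had risen at day 3, and the differences between the days were -3.27 (adjusted p = 0.00773) and -2.91 (adjusted p = 0.0157). At day 3 the siBrca1 replicates were far apart for these genes, with 11.6 and 63.3 CPM for *Aldh1l2*.

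*Dhcr7*, the last enzyme of cholesterol synthesis, was at 29.0 and 26.5 CPM in nt and at 21.9 and 19.4 CPM in siBrca1, a change of -0.42 (interval -0.74 to -0.10). *Pfkp*, a phosphofructokinase, was at 70.2 and 90.5 CPM in nt and at 59.9 and 52.1 CPM in siBrca1, a change of -0.51 (interval -0.85 to -0.17). *Slc2a1*, the glucose transporter, was at 188 and 239.6 CPM in nt and at 174 and 151 CPM in siBrca1, a change of -0.39. For these 3 genes both siBrca1 values were below both nt values, as for 15% of all genes tested. List members were named as core members or for a small p in this comparison, so such separation can follow from the choice.

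Further genes were named as those with the largest differences, by unadjusted p among changes above 1, and none was called. *Nmnat2* (chromosome 1, bases 152954993 to 153119261, plus strand), an NAD-synthesising enzyme of axons, was at 7.68 and 7.65 CPM in nt and at 19.7 and 16.7 CPM in siBrca1, a change of 1.23 (interval 0.89 to 1.56, adjusted p = 0.0982). *Mn1*, a transcriptional coactivator, was at 3.76 and 3.83 CPM in nt and at 8.93 and 8.43 CPM in siBrca1, a change of 1.17. *Serpina3n*, a serine protease inhibitor of the acute phase, was at 19.8 and 18.8 CPM in nt and at 36.9 and 49.3 CPM in siBrca1, a change of 1.14, whereas at day 3 it had fallen by 0.44 on the log2 scale (adjusted p of the difference = 0.00295). *Mgam* and *Selp*, the genes of maltase-glucoamylase and P-selectin, had larger changes (2.04 and 1.82) at levels near the limit of detection, with nt values of 0.240 to 0.478 CPM.

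On the lower side, *Slco4a1* was at 19.8 and 18.7 CPM in nt and at 9.63 and 6.34 CPM in siBrca1, a change of -1.28 (interval -1.81 to -0.75, adjusted p = 0.274). *Aox3*, an aldehyde oxidase, was at 10.1 and 10.5 CPM in nt and at 5.03 and 3.37 CPM in siBrca1, a change of -1.29 (interval -1.79 to -0.80). *Col25a1*, a transmembrane collagen, was at 12.2 and 13.8 CPM in nt and at 6.07 and 3.03 CPM in siBrca1, a change of -1.56. *Adamts2*, the enzyme that trims procollagen, was at 80.5 and 78.8 CPM in nt and at 49.4 and 52.3 CPM in siBrca1, a change of -0.65 (interval -0.91 to -0.39). Most of these genes were named for a small unadjusted p in this comparison, so separate groups follow from the choice.

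*Penk*, which encodes the enkephalin precursor, was among the called genes with the largest differences between the days. It was at 10.7 and 4.78 CPM in nt and at 22.5 and 23.1 CPM in siBrca1 at day 6, but at 12.6 and 9.35 CPM in nt and at 4.13 and 2.39 CPM in siBrca1 at day 3. The day 6 change (1.65) thus exceeded the day 3 change (-1.74) by 3.39 (interval 2.28 to 4.51, adjusted p = 0.00226). The adipogenic genes *Plin1* and *Fabp4*, which encode a lipid droplet coat protein and a fatty acid carrier, were at the other end, with differences of -3.91 and -3.17. *Fabp4* was at 9.84 and 11.7 CPM in nt and at 7.46 and 6.14 CPM in siBrca1 at day 6, and at 1.58 and 2.40 CPM in nt and at 6.49 and 21.2 CPM in siBrca1 at day 3. At day 6, 1 of 21 adipogenic genes was higher and 2 were lower at an unadjusted p under 0.05. The shares over all genes tested were 5.13% and 2.87%. At an adjusted p under 0.05, 10 had a lower change at day 6 than at day 3 and 0 a higher one. Of all genes tested, 10.3% did so in each direction.

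Direct comparison with the other knockdowns at day 6 asked where siBrca1 stood apart from siWdr5 and siBard1. Against siBard1, 0 of 14028 genes (0%) were called with limma, with 725 at an unadjusted p under 0.05 and a smallest adjusted p of 0.0552. The intervals for single genes were of the same width as above, so this does not show that the 2 knockdowns acted alike. The contractile list had a median difference of -0.02 between siBrca1 and siBard1, whose replicates, however, were themselves apart, for example 466 and 179 CPM for *Acta2*.

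Against siWdr5, 120 genes (0.855%) were called, 48 higher and 72 lower in siBrca1. By adjusted p alone these were 189 (1.35%) higher and 211 (1.5%) lower. The median over all genes was -0.09, and after centring of every library on its median the called genes were 67 higher and 63 lower. The balance of directions turned on 1 library, with 112 higher and 41 lower without siBrca1 replicate 1 and 37 higher and 88 lower without replicate 2. Without siWdr5 replicate 1 or 2 only 5 or 2 genes were called. Matrix genes were lower in siBrca1 than in siWdr5, with 11 of 54 collagen and matrix genes and 8 of 26 protease genes lower and 0 of either list higher at an adjusted p under 0.05. *Col1a1* was at 3507 and 5180.4 CPM in siWdr5, 1.39 above siBrca1 on the log2 scale (adjusted p = 0.0302), and *Fbln2* at 633 and 847 CPM, 1.32 above (adjusted p = 0.033). *Serpina3n* was at 153 and 214 CPM in siWdr5, a difference of -2.08 for siBrca1 (interval -2.52 to -1.64, adjusted p = 0.00571). *Adamts2* was at 103 and 118 CPM in siWdr5, a difference of -1.11 (adjusted p = 0.00576). The contractile list had a median difference from siWdr5 of -0.51, and 0 of its 26 genes passed the test with limma.

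Genes higher in siBrca1 than in siWdr5 included *Dppa3*, *Morc1* and *Ifit1*. *Dppa3*, which protects methylation in the early embryo, was at 26.8 and 12.7 CPM in siBrca1 and at 5.03 and 3.32 CPM in siWdr5, a difference of 2.14 (interval 1.37 to 2.91, adjusted p = 0.0243). *Morc1*, a silencer of transposons in germ cells, was at 14.8 and 6.07 CPM in siBrca1 and at 2.14 and 0.458 CPM in siWdr5, a difference of 3.05 (adjusted p = 0.0458). *Ifit1* was at 0.345 and 0.840 CPM in siWdr5, a difference of 2.78 (adjusted p = 0.0366). For *Dppa3* and *Morc1*, siBrca1 replicate 1 was more than 2-fold above replicate 2, as it was for *Nanog*.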

How the data were processed

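RNA was measured in 16 libraries (4 siRNA groups, 2 days, 2 replicates), each prepared by the authors from 200 ng RNA with ribosomal RNA depletion. Per the labels, reads were aligned to GRCm38/mm10 with STAR 2.5.2b and normalised with edgeR 3.20.9. The counter, gene annotation and strand setting are not given in the sources used here, so reads of overlapping or antisense genes cannot be separated. The deposited table holds log2 CPM per gene and library, to which the authors added a prior of about 2 reads. From its steps, whole reads were recovered for 100% of values (tolerance 0.01 read), with totals of 11169738 to 26832534 reads. CPM values in the text are these reads over the scaled library size. Precision is set by 2 replicates per group, and detection limits cover counting error only.

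Genes whose log2 CPM averaged 0 or more over the 16 libraries were tested with limma 3.58.1 (R 4.3.3; limma-trend, two-sided) on the deposited log2 values, over the 8 libraries of day 6, and adjusted by Benjamini-Hochberg over 14028 genes. A call needed an adjusted p under 0.05 and a change above 1. Day 3 changes used the 8 day 3 libraries, and differences between days all 16. Intervals are 95%. Fold changes are on the scale with the prior and understate low genes. Limma-voom on the recovered reads was an alternative, with other filters, scalings, pseudocounts and libraries. Replicates were independent experiments. The fits were tested on simulated data.

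The genes, 35 lists and tests were chosen with earlier results of these data known. Named were the siRNA targets and OSKM, 12 genes per direction by size among called genes (otherwise by unadjusted p above a change of 1), core members of each list with up to 4 more by adjusted p, and 5 called genes per direction in the other comparisons.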

Additional observations from a re-analysis of the deposited data

Results flagged for a closer look

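The change between siBrca1 and nt differed between day 6 and day 3 for 2878 of 14028 genes at an adjusted p under 0.05 (limma, interaction over all 16 libraries), and 37 of the genes named here were among them. All differences are day 6 change minus day 3 change on the log2 scale.

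The difference was above 0 for 15 of them. The repair, replication and division genes had 1.58 for *Brca1*, 1.41 for *Bard1*, 1.81 for *Chek1*, 1.37 for *Pcna*, 1.09 for *Uhrf1*, 1.75 for *Ccna2* and 1.34 for *Mki67*. *Wdr5* had 0.77, the epithelial gene *Cdh1* 1.34, and the pluripotency genes *Sall4* and *Fbxo15* 1.25 and 3.16. *Serpina3n* had 1.58, *Penk* 3.39, *Col6a5* 3.52 and *C2cd4a* 3.69. The last 2 were low at day 6, with at most 4.32 CPM.

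The difference was below 0 for 22. Contractile genes had -0.89 for *Myh11*, -0.95 for *Tpm2* and -1.88 for *Acta1*. Genes of TGF-beta signalling, YAP and the matrix had -1.02 for *Tgfb3*, -1.43 for *Inhba*, -1.67 for *Ankrd1*, -2.13 for *Ctgf*, -0.96 for *Col8a1*, -0.82 for *Loxl2*, -0.90 for *Adamts2* and -1.57 for *Itga5*. Metabolic genes had -1.70 for *Pycr1*, -3.27 for *Aldh1l2*, -2.91 for *Trib3*, -0.70 for *Slc2a1*, -2.03 for *Aldh1a3*, -1.28 for *Aox3*, -3.91 for *Plin1* and -3.17 for *Fabp4*. The remaining values were -1.80 for *H2-K1*, -1.66 for *F11r* and -1.24 for *Slco4a1*.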

How the results depend on the processing

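Counts of called genes are given here by alternative. For siBrca1 against nt at day 6 the count was 1 with only the libraries of both groups and 16 with all 16 libraries, and 0 under every other alternative run, voom, filters, scalings and pseudocounts included, with 0 to 0 as the range when 1 library was left out. For the difference between the days (1206) the count was 2878 without a fold threshold, and leaving out 1 library gave 437 (without siBrca1 day 3 replicate 2) to 1956 (without siBrca1 day 3 replicate 1), with 774 without nt day 3 replicate 1. Centring each library on its median gene gave 465 higher and 759 lower in place of 555 and 651. Against siWdr5 (120) the counts were 202 with only the libraries of both groups, 251 with all 16 libraries, 400 without a fold threshold and 0 without a trend on expression. Leaving out 1 library gave 2 (without siWdr5 replicate 2) to 153, with 5 without siWdr5 replicate 1. Against siBard1 (0) the count was 1 with all 16 libraries and 0 to 1 with 1 library left out. The causes of these moves were not tested. Whether libraries with the same replicate number came from the same experiment is not given in the sources used here. The replicate differences of siBrca1 and nt correlated across genes with r = 0.198, and other pairs of groups with -0.07 to 0.26. Replicate 1 was the higher one in 46 to 48 of the 48 histone genes in all 4 groups of day 6. With a replicate block the counts were 0 against nt, 1299 for the days, 191 against siWdr5 and 2 against siBard1. The smallest adjusted p against nt was then 0.0589 (limma), in place of 0.0982. The 95% interval of the median gene reached 0.39 to either side of its change on the log2 scale, which limits what 2 libraries per group can show.

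The change of *Brca1* at day 6 was -0.0149 after centring and -0.0458 after quantile normalization, and -0.17 to 0.19 with 1 library left out. Leaving out 1 library also turned the sign of changes that were not significant, with ranges of -0.21 to 0.27 for *Bard1*, -0.16 to 0.45 for *Mki67*, -0.13 to 0.10 for *Pcna*, -0.35 to 0.0942 for *Cdh1*, -0.45 to 1.27 for *Nanog*, -0.062 to 2.599 for *Dppa5a*, -0.25 to 0.0455 for *Sall4* and -0.25 to 1.73 for *Mylpf*. The values of *Nanog*, *Dppa5a* and *Mylpf* below 0 were those without siBrca1 replicate 1. Of 1211 values of 82 named genes other than *Brca1* under alternatives, 1186 kept direction and side of an adjusted p of 0.05. By adjusted p alone, whatever the size of the change, 15 fell under it in addition, and 10 changed sign.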
